A study of Mus musculus with 12 samples.

Results

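The genes described here handle cellular iron. They are 10 genes chosen by name for their known roles, and all 10 are listed in both expression tables, among 32199 genes in the table of the PAD4 set and 31719 in that of the IL-33 set. Kidney RNA was sequenced from 12 mice, each a library of its own, in 4 groups of 3. The PAD4 set holds Padi4 knockout mice (PAD4 is the enzyme that citrullinates histones when neutrophils cast extracellular traps) and wild-type mice. The IL-33 set holds mice labelled Il33 knockout (IL-33 is an alarmin cytokine) and separate wild-type mice.

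All mice were male and aged 8 weeks, and the wild type was C57BL/6. The labels give neither the strain nor the kind of allele of the knockouts. Every group, the wild types included, had 1 kidney removed and 3 weeks of recovery, then 24 h without water, furosemide (a loop diuretic) 20 min before the contrast agent iodixanol, and harvest 24 h after it. No group without contrast injury was analysed here, so the values compare injured kidneys with injured kidneys. The series asks how PAD4 and IL-33 bear on ferroptosis, a form of cell death that depends on iron.

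A cell takes up iron bound to transferrin through the transferrin receptor (Tfrc), reduces it in endosomes (Steap3) and moves it into the cytosol (Slc11a2). It stores iron in ferritin, a shell of heavy (Fth1) and light (Ftl1) chains that Ncoa4 delivers to lysosomes for breakdown, and exports it through ferroportin (Slc40a1). The iron regulatory proteins encoded by Aco1 and Ireb2 bind iron-responsive elements when iron is scarce. Binding in a 5′ untranslated region blocks translation, and binding in the 3′ untranslated region of Tfrc protects the transcript from decay. In the kidney, proximal tubule cells reclaim filtered transferrin and other iron carriers.

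The elements that a search found in the members are printed, since they are where the iron regulatory proteins bind. The motif searched, on the transcript strand only, was a bulged C, any 5 bases, the loop bases CAGTG and 1 further loop base other than G, with the 5 bases before the loop able to pair with the 5 after it (G with T allowed). It was found in the 5′ untranslated region of Fth1, Ftl1 and Slc40a1 and at 4 places in the 3′ untranslated region of Tfrc. Among genes with a 5′ untranslated region 0.11% held it there, and among genes with a 3′ one 0.461%. Capitals mark the bulged C and the loop of 6 bases. Sequences are from GENCODE M21 transcripts (GRCm38), 30 bases each, and the build behind the expression tables is not given in the sources used here.
Fth1, chr19:9982732-9982761, plus strand: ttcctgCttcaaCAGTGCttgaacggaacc
Ftl1, chr7:45459778-45459807, minus strand: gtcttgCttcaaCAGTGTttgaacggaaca
Slc40a1, chr1:45925464-45925493, minus strand: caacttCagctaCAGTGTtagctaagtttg
Tfrc, chr16:32631219-32631248, plus strand: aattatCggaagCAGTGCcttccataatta
Tfrc, chr16:32631598-32631627, plus strand: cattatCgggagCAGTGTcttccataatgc
Tfrc, chr16:32631663-32631692, plus strand: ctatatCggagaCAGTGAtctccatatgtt
Tfrc, chr16:32631710-32631739, plus strand: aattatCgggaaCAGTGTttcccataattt
The elements of Fth1 and Ftl1 are identical at 26 of 30 bases, and those of Fth1 and Slc40a1 at 13 of 30. These letters were not found in the untranslated regions of the other 6 members. The search misses elements of other forms, such as the one known in the 3′ untranslated region of some Slc11a2 transcripts.

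Values are FPKM, fragments scaled to transcript length and library size, from which sequencing depth cannot be read. The sum over all genes ranged over 385124 to 420279 FPKM per library in the IL-33 set, with 24.1% to 29.2% of it from the mitochondrial genome. It ranged over 700601 to 812981 FPKM in the PAD4 set, with 52.0% to 60.0% mitochondrial, and the labels put the sets in separate batches, so levels are not compared between them. Padi4 was at 0.187 to 0.497 FPKM in the PAD4 knockout, against 0.704 to 1.67 FPKM in its wild type (limma adjusted p = 0.0147, and 0.0548 to 0.0797 without PAD4 knockout library 3 or wild-type library 3). Il33 was at 0.616 to 1.14 FPKM in the libraries labelled IL-33 knockout, against 1.13 to 3.64 FPKM in their wild type (adjusted p = 0.099, and 0.0348 without wild-type library 2), so "labelled IL-33 knockout" is used for them. Il33 also fell in the PAD4 knockout, where it was at 0.889, 1.58 and 1.28 FPKM, against 3.57, 5.29 and 3.28 FPKM in wild type, 30.9% on the means and without overlap (adjusted p = 0.00208). Of markers of other tissues, 16 of 16 colon, 9 of 9 lung and 8 of 8 smooth muscle markers tested were lower in the PAD4 knockout. Their sums were 125 to 270 (colon), 42.6 to 208 (lung) and 50.6 to 229 FPKM (smooth muscle) in the PAD4 knockout, all highest in library 2, against 507 to 754, 296 to 846 and 332 to 725 FPKM in its wild type, and their part in the changes of the PAD4 comparison was not tested. In the IL-33 set 2 of 4 colon markers, 1 of 1 lung marker and 0 of 4 smooth muscle markers were lower. The 2 colon markers, Krt20 and Lgals4, averaged 0.321 and 3.73 FPKM in the libraries labelled knockout, against 211 and 26.2 FPKM in wild type. Muc2 and Car1 averaged 0.016 and 0.045 FPKM in those libraries, against 0.011 and 0.012 FPKM in wild type, too low to be tested. Whether the 2 calls reflect colon tissue was not tested. Of neutrophil markers, 6 of 10 were lower in the PAD4 knockout and 0 of 4 differed in the IL-33 set, and of thick ascending limb markers 4 of 8 and 7 of 8 were higher. No listed marker was at 0 in every library of a set.

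Of the 10 members, 4 rose and 1 fell in the kidneys labelled IL-33 knockout, and 2 rose and 3 fell in the PAD4 knockout. A call is a limma adjusted p under 0.05 over all genes tested, on the log2(FPKM + 1) scale, and all 10 members were abundant enough to be tested in both sets. Among all genes, 22.2% rose and 16.8% fell in the IL-33 comparison, and 8.89% rose and 8.79% fell in the PAD4 comparison. The median change of the members was 0.017 in the IL-33 comparison and -0.17 in the PAD4 comparison, against 0.044 and 0.016 over all genes tested. The groups did not overlap for 7 members in the IL-33 comparison, where they did not overlap for 54.6% of all genes, and for 6 members in the PAD4 comparison, against 33% of all genes. In bulk tissue, fewer cells of a type and less RNA per cell cannot be told apart. The smallest p that exact permutation of 3 libraries and 3 allows is 0.1.

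**Figure D1:**
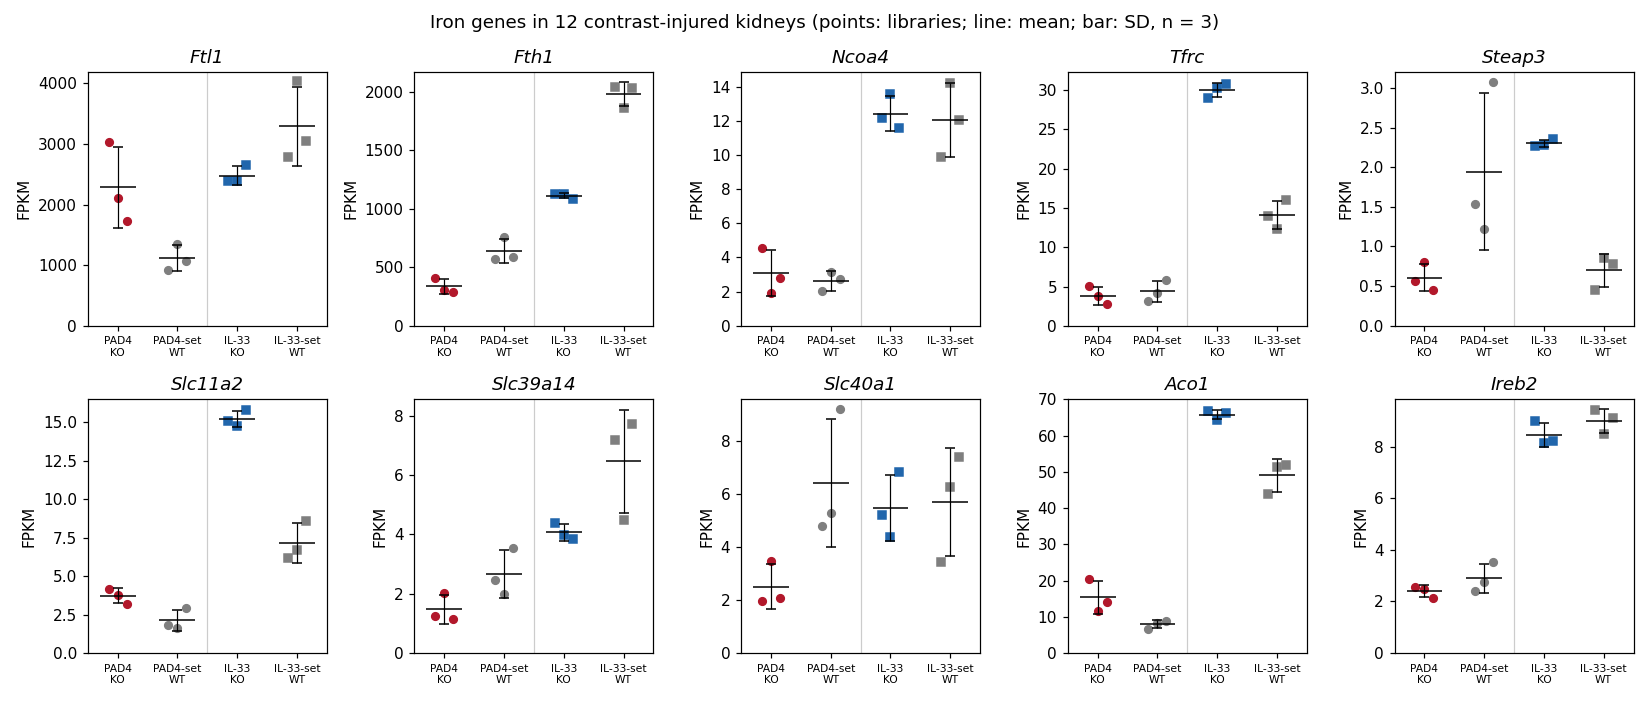
FPKM of the 10 iron genes in every library, in 4 groups along the horizontal axis (PAD4 knockout, its wild type, labelled IL-33 knockout, its wild type). Points are libraries, lines are means and bars are SD (n = 3). Tfrc, Steap3 and Slc11a2 stand clear above their wild type in the IL-33 set, and Fth1 stands below its wild type in both sets.

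Tfrc, Steap3 and Slc11a2, which act in sequence on transferrin-bound iron, all rose in the kidneys labelled IL-33 knockout. Tfrc, the receptor that carries transferrin into the cell, was at 29.0, 30.2 and 30.8 FPKM in the libraries labelled IL-33 knockout, against 13.9, 12.4 and 16.0 FPKM in their wild type. The groups were far apart, and the mean was 2.13 times that of wild type. The change was 1.04 ± 0.11 (SE), with adjusted p = 0.000368 and exact permutation p = 0.1. Tfrc in the PAD4 set was at 5.00, 3.78 and 2.74 FPKM in the knockout, against 3.13, 4.13 and 5.84 FPKM in wild type. Those ranges overlapped almost wholly, and the change of -0.14 ± 0.26 (SE) did not pass (adjusted p = 0.774).

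Steap3, the ferrireductase that converts ferric to ferrous iron in the endosome, differed most between the sets. It was at 2.27, 2.28 and 2.36 FPKM in the libraries labelled IL-33 knockout, against 0.455, 0.855 and 0.782 FPKM in their wild type. Every library labelled knockout lay above every wild-type library, by 3.30 times on the means (change of 0.97 ± 0.13 (SE), adjusted p = 0.00106). In the PAD4 set the order was the opposite, with 0.569, 0.800 and 0.456 FPKM in the knockout, against 1.54, 1.22 and 3.07 FPKM in wild type. Steap3 fell to 31.3% of the wild-type mean there (change of -0.83 ± 0.22 (SE), adjusted p = 0.0141), but it missed the threshold once wild-type library 1 (adjusted p = 0.0621) or 3 (adjusted p = 0.0728) was left out.

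Slc11a2, the divalent metal transporter DMT1 that releases iron from the endosome, was at 15.1, 14.7 and 15.8 FPKM in the libraries labelled IL-33 knockout, against 6.14, 6.69 and 8.60 FPKM in their wild type. The groups did not overlap, and the change was 1.00 ± 0.13 (SE), adjusted p = 0.000863. The PAD4 knockout was at 4.17, 3.76 and 3.20 FPKM, against 1.82, 1.62 and 2.93 FPKM in wild type. These groups did not overlap either, but the change of 0.61 ± 0.23 (SE) missed the threshold (adjusted p = 0.0762) and passed in 3 of 16 alternatives, among them leaving out wild-type library 3 (adjusted p = 0.0478). An annotated gene on the opposite strand, Gm5475, reached at most 0.204 FPKM in the PAD4 set and 0.438 FPKM in the IL-33 set.

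Slc39a14 encodes ZIP14, a zinc and iron transporter that takes up iron not bound to transferrin and that inflammation induces in mouse liver. It was at 4.37, 3.99 and 3.83 FPKM in the libraries labelled IL-33 knockout, against 7.18, 4.47 and 7.72 FPKM in their wild type. All values labelled knockout were lower, with wild-type library 2 just above them, and the change of -0.53 ± 0.18 (SE) missed the threshold (adjusted p = 0.0514, and 0.00301 without that library). PAD4 knockout kidneys were at 1.24, 2.03 and 1.14 FPKM, against 2.45, 1.99 and 3.56 FPKM in wild type. The groups overlapped through knockout library 2, and the change of -0.56 ± 0.23 (SE) missed as well (adjusted p = 0.0959, and 0.0288 without that library).

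Tfrc and Steap3 are also abundant in red cell precursors, and the globin genes and Alas2, an erythroid enzyme of heme synthesis, changed in the direction of Steap3 in each set. All 6 tested erythroid markers rose in the kidneys labelled IL-33 knockout, where their sum was 1514 to 2357 FPKM, against 874 to 1222 FPKM in wild type. In the PAD4 knockout 5 of 6 fell and 0 rose, with sums of 603 to 928 FPKM in the knockout, against 1304 to 2506 FPKM in wild type. Slc4a1, which intercalated cells make as well, was at 13.6 FPKM in the kidneys labelled IL-33 knockout and 0.543 FPKM in their wild type on average, a far larger gap than that of the globins. In the PAD4 set Slc4a1 lay on the side opposite to Steap3, at 2.17 ± 1.71 FPKM in the knockout and 0.561 ± 0.323 FPKM in wild type (SD, n = 3 each), with overlapping groups (change of 0.86, adjusted p = 0.0642). Ahsp was not matched and is not used here. The part of red cells in the changes of Tfrc and Steap3 was not tested.

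**Figure D2:**
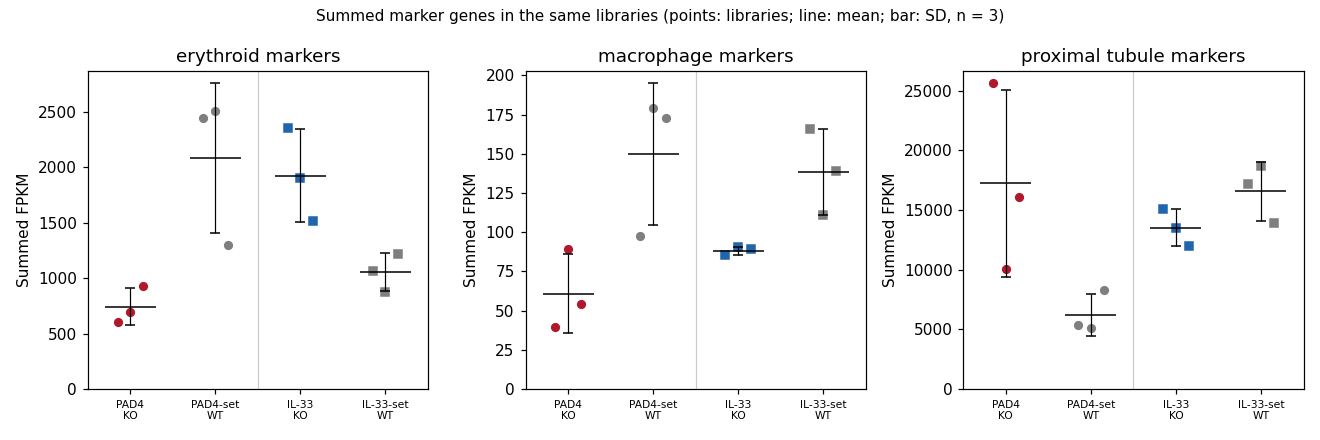
Summed FPKM of erythroid, macrophage and proximal tubule markers in every library, by group along the horizontal axis. Points are libraries, lines are means and bars are SD (n = 3). Erythroid sums lie at 603 to 928 FPKM in the PAD4 knockout, against 1304 to 2506 FPKM in its wild type, and the order is the opposite in the IL-33 set.

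Ferritin transcripts were by far the most abundant of the members, and in the PAD4 knockout the heavy chain fell while the light chain rose. Fth1, the heavy chain with the ferroxidase site that oxidises iron for storage, fell in both comparisons. It was at 1123.5, 1131 and 1086 FPKM in the libraries labelled IL-33 knockout, against 2039.8, 1864 and 2036 FPKM in their wild type. The libraries labelled knockout lay within a narrow band at 56.2% of the wild-type mean, and the change was -0.83 ± 0.09 (SE), adjusted p = 0.000503. Fth1 in the PAD4 set was at 411, 309 and 291 FPKM in the knockout, against 569.9, 759 and 586 FPKM in wild type. The groups did not overlap and the mean was 52.7% of wild type, but the change of -0.93 ± 0.31 (SE) passed only narrowly (adjusted p = 0.0484). Without PAD4 knockout library 2 or 3, or without any 1 of the wild-type libraries, the adjusted p was 0.0863 to 0.249.

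Ftl1, the light chain that helps form the iron core, rose in the PAD4 knockout. It was at 3028, 2104 and 1721.5 FPKM in the PAD4 knockout, against 919.9, 1353 and 1076 FPKM in wild type. All knockout libraries were higher, by 2.05 times on the means, with knockout library 1 well above the other two (change of 1.01 ± 0.31 (SE), adjusted p = 0.0275). It missed the threshold once wild-type library 1 (adjusted p = 0.153) or 3 (adjusted p = 0.0954) was left out. In the IL-33 set Ftl1 was at 2385.5, 2384 and 2655 FPKM in the libraries labelled knockout, against 2792, 4034 and 3049 FPKM in wild type. Each value labelled knockout was lower, yet the change of -0.40 ± 0.15 (SE) missed the threshold (adjusted p = 0.0759) and passed in 1 of 16 alternatives, leaving out wild-type library 1 (adjusted p = 0.0444).

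Light chain reads are hard to place, because the mouse genome holds close copies of Ftl1. Of the 50-base stretches of the Ftl1 coding sequence, 83.6% occur whole in Ftl1-ps1, 54.6% in Ftl2-ps and 25.0% in Ftl1-ps2. Ftl1-ps1 was listed at 49.1 ± 15.3 FPKM in the PAD4 knockout and 24.96 ± 6.50 FPKM in wild type (SD, n = 3 each). In the IL-33 set it was at 46.4 ± 4.51 FPKM in the libraries labelled knockout and 65.2 ± 13.5 FPKM in wild type. The copies sat far below Ftl1 itself, on the same side of wild type. With all copies summed, the change of Ftl1 was 1.01 in the PAD4 comparison and -0.40 in the IL-33 comparison. Gm10252, annotated on the opposite strand of Ftl1, was at 2.25 ± 1.60 FPKM in the libraries labelled IL-33 knockout and 12.2 ± 4.58 FPKM in wild type (adjusted p = 0.00362), and its share of reads cannot be told apart from these tables.

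The ratio of the ferritin chains within a library, chosen after the values were seen, does not depend on how libraries are scaled to each other. Ftl1 over Fth1 was 7.37, 6.81 and 5.92 in the PAD4 knockout, against 1.61, 1.78 and 1.83 in wild type. The ratio in every knockout library was more than that in any wild-type library by a wide margin (exact permutation p = 0.1, the smallest possible). Both chains already lay apart there in opposite directions, so this separation follows from their values and is no further evidence. In the IL-33 set the ratio was 2.12, 2.11 and 2.45 in the libraries labelled knockout, against 1.37, 2.16 and 1.50 in wild type. Wild-type library 2 lay inside the range of the libraries labelled knockout (exact permutation p = 0.3). The sum of both chains was 2621 ± 736 FPKM in the PAD4 knockout and 1755 ± 321 FPKM in wild type, with overlapping ranges (exact permutation p = 0.2). It was 3588 ± 132 FPKM in the kidneys labelled IL-33 knockout and 5272 ± 557 FPKM in wild type, without overlap (exact permutation p = 0.1; SD, n = 3 each).

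Setting uptake against storage, Tfrc per 1000 FPKM of Fth1 was 25.8, 26.7 and 28.3 in the libraries labelled IL-33 knockout, against 6.83, 6.63 and 7.87 in their wild type. These groups were widely separated (exact permutation p = 0.1). This follows from Tfrc and Fth1 each lying apart in opposite directions, and it is no further evidence. The ratio of Tfrc to Fth1, too, was chosen after the values were seen. The same ratio in the PAD4 set was 12.2, 12.3 and 9.42 in the knockout, against 5.49, 5.43 and 9.96 in wild type. Wild-type library 3 reached above knockout library 3, so the groups overlapped (exact permutation p = 0.2).

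**Figure D3:**
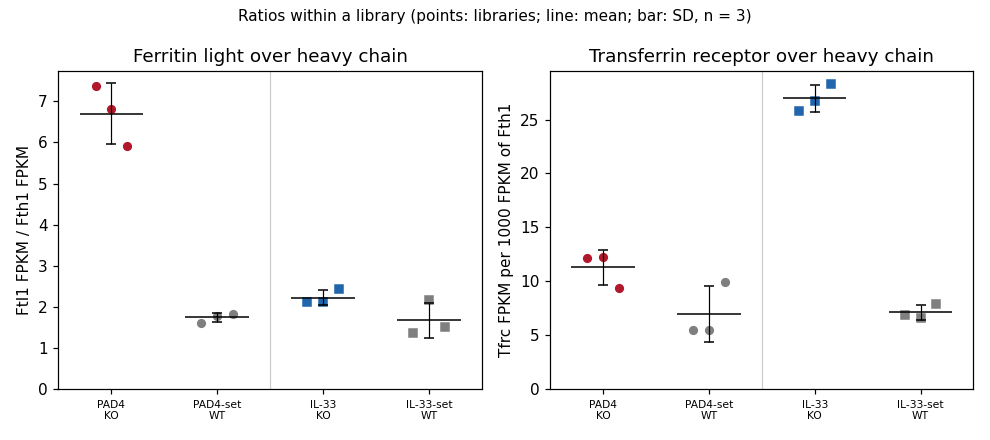
Ratios of FPKM values within each library, by group along the horizontal axis, with Ftl1 over Fth1 on the left and Tfrc per 1000 FPKM of Fth1 on the right. Points are libraries, lines are means and bars are SD (n = 3). The first ratio separates the PAD4 knockout (5.92 to 7.37) from its wild type (1.61 to 1.83), and the second separates the kidneys labelled IL-33 knockout (25.8 to 28.3) from theirs (6.63 to 7.87).

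Ncoa4, the receptor that delivers ferritin to autophagy, passed the test in neither comparison. It was at 12.2, 13.5 and 11.6 FPKM in the libraries labelled IL-33 knockout, against 9.86, 14.2 and 12.1 FPKM in their wild type (change of 0.051 ± 0.14 (SE), adjusted p = 0.792). PAD4 knockout kidneys had 4.52, 1.89 and 2.81 FPKM, against 2.01, 3.14 and 2.75 FPKM in wild type (change of 0.13 ± 0.25 (SE), adjusted p = 0.798). The groups overlapped in both sets, and in each the sign of the change depended on which library was left out.

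Slc40a1, ferroportin, the iron exporter, fell in the PAD4 knockout. It was at 1.98, 3.49 and 2.06 FPKM in the PAD4 knockout, against 4.81, 5.28 and 9.21 FPKM in wild type. The groups did not overlap and the mean was 39.0% of wild type (change of -1.06 ± 0.27 (SE), adjusted p = 0.0102, and 0.067 without wild-type library 3). In the IL-33 set it was at 5.23, 4.38 and 6.83 FPKM in the libraries labelled knockout, against 3.45, 6.29 and 7.39 FPKM in wild type. Those values overlapped throughout, with a change of -0.018 ± 0.25 (SE) and adjusted p = 0.962.

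Macrophages that recycle iron are a rich source of ferroportin, and 5 of 10 tested macrophage markers fell and 0 rose in the PAD4 knockout. Their sum was 39.7 to 89.1 FPKM in the PAD4 knockout, against 97.6 to 179 FPKM in wild type. In the IL-33 set 7 of 9 tested markers rose and 2 fell, while the sum was 85.5 to 90.3 FPKM in the libraries labelled knockout, against 111 to 166 FPKM in wild type. Cd14 and Cd68, the markers that fell, were the most abundant of them in wild type (106.6 and 12.4 FPKM on average, against 4.46 and 4.14 FPKM in the libraries labelled knockout). The part of macrophages in the fall of Slc40a1 was not tested.

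Of the genes of the iron regulatory proteins, Aco1 passed the test in both comparisons and Ireb2 in neither. Aco1, whose product is cytosolic aconitase when it holds an iron-sulfur cluster and IRP1 when it does not, rose in both. It was at 66.8, 64.4 and 66.2 FPKM in the libraries labelled IL-33 knockout, against 43.8, 51.3 and 51.9 FPKM in their wild type, without overlap (change of 0.42 ± 0.09 (SE), adjusted p = 0.00979). PAD4 knockout kidneys had 20.4, 11.6 and 14.2 FPKM of it, against 6.75, 8.28 and 8.97 FPKM in wild type, again without overlap. That change, 0.84 ± 0.29 (SE), passed narrowly (adjusted p = 0.0487), and leaving out PAD4 knockout library 1 or 3 or any 1 wild-type library ended the call (adjusted p = 0.0849 to 0.203).

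Ireb2, which encodes IRP2, a sensor that is degraded when iron is plentiful, was at 8.98, 8.13 and 8.23 FPKM in the libraries labelled IL-33 knockout, against 9.41, 8.50 and 9.11 FPKM in wild type (change of -0.083 ± 0.096 (SE), adjusted p = 0.523). PAD4 knockout kidneys had 2.57, 2.46 and 2.13 FPKM, against 2.41, 2.76 and 3.52 FPKM in wild type (change of -0.19 ± 0.22 (SE), adjusted p = 0.607). The groups overlapped in both sets.

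Aco1 and Slc11a2 are expressed in proximal tubules, and most markers of that segment passed as higher in both comparisons. Slc11a2 itself passed only in the IL-33 comparison. Of 15 tested proximal tubule markers 11 rose and 0 fell in the PAD4 knockout, with sums of 10071 to 25604 FPKM in the knockout, against 5078 to 8269 FPKM in wild type. In the kidneys labelled IL-33 knockout 10 of 16 rose and 2 fell, while the sums were 11963 to 15041 FPKM, against 13882 to 18709 FPKM in wild type, most of both being Kap, which fell. The part of tubule cell content in the changes of Aco1 and Slc11a2 was not tested.

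FPKM is per length of transcript, so levels can be ordered within a group. In all 4 groups the order began with Ftl1, then Fth1, then Aco1, and ended with Steap3. Ftl1 and Fth1 did not overlap in any group, nor did Fth1 and Aco1. In the libraries labelled IL-33 knockout no gene overlapped its neighbour, although the lowest Slc40a1 value and the highest Slc39a14 value were almost equal (4.377 and 4.373 FPKM), in the order Ftl1, Fth1, Aco1, Tfrc, Slc11a2, Ncoa4, Ireb2, Slc40a1, Slc39a14 and Steap3. In their wild type, Tfrc and Ncoa4 overlapped, and the genes from Ireb2 down to Slc40a1 were not separated from their neighbours. Among PAD4 knockout libraries, the genes from Tfrc through Slc11a2, Ncoa4 and Slc40a1 to Ireb2 each overlapped their neighbour, and in its wild type so did all from Aco1 down to Steap3.

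**Figure D4:**
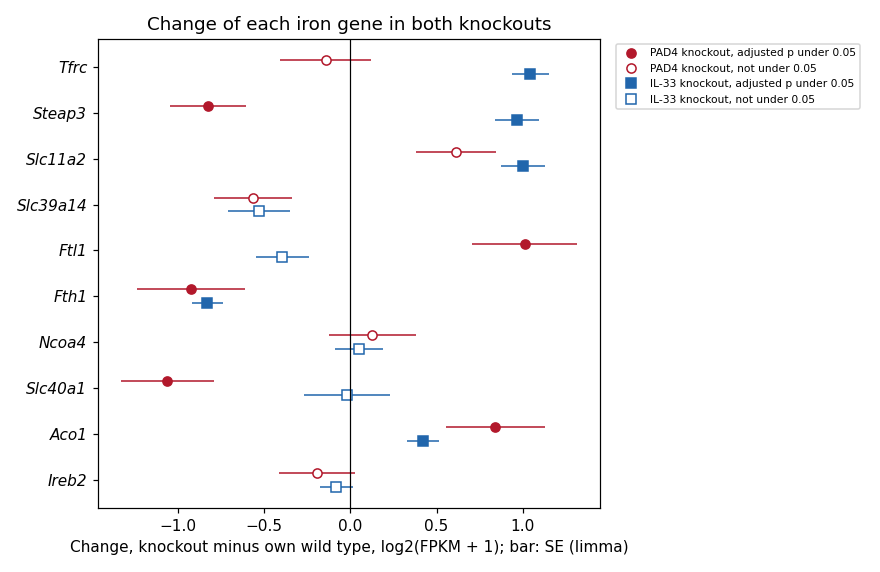
Change of each iron gene in both knockouts, as knockout minus its own wild type on the log2(FPKM + 1) scale (horizontal axis), by gene (vertical axis). Circles are the PAD4 comparison and squares the IL-33 comparison, filled where the adjusted p was under 0.05, with bars for SE from limma. Steap3 lies on opposite sides (-0.83 and 0.97), while Fth1 lies at -0.93 and -0.83.

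The changes of 3 members differed between the knockouts, by a limma contrast of both changes over all 12 libraries, in which 12.4% of 13010 genes passed. Neither comparison uses the other's wild-type libraries. Each knockout was measured in a batch of its own, so a difference between the knockouts cannot be told apart from one between the batches. Steap3 differed by 1.79 ± 0.27 (SE) (change in the IL-33 comparison minus change in the PAD4 comparison, adjusted p = 0.00109), Tfrc by 1.19 ± 0.30 (SE) (adjusted p = 0.0171) and Ftl1 by -1.41 ± 0.33 (SE) (adjusted p = 0.013). Slc40a1 differed by 1.04 ± 0.38 (SE) and missed the threshold (adjusted p = 0.0878), and passed in 4 of 22 alternatives, among them leaving out PAD4 knockout library 2 (adjusted p = 0.0336). For Fth1 the difference was 0.097 ± 0.28 (SE), for Slc11a2 0.39 ± 0.25 (SE) and for Aco1 -0.42 ± 0.29 (SE), none of which passed (adjusted p = 0.858, 0.345 and 0.371). The differences of Ncoa4 (-0.076), Slc39a14 (0.034) and Ireb2 (0.11) did not pass either.

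The genes whose pattern over the 12 libraries was most like that of a member were found by the root mean square difference of log2(FPKM + 1) from the own wild-type mean, among 10737 genes. For Fth1 they were Map1lc3a (0.138), a ubiquitin-like protein of autophagosomes, Pnp (0.139) and Ppp2cb (0.187). For Ftl1 they were its copies Ftl1-ps1 (0.088) and Ftl2-ps (0.125), then Atox1 (0.130), a copper chaperone. For Tfrc they were Fbxo25 (0.121), the lysosomal ceramidase gene Asah1 (0.146) and the lysosomal thioesterase gene Ppt1 (0.159). For Slc40a1 they were Endod1 (0.159), the desmosome gene Dsg2 (0.180) and Tmem98 (0.196). All genes compared share the same libraries and scaling, and the list is a description with no test.

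The receptor genes Lrp2 and Cubn rose and Trf fell in both knockouts, while Lcn2 passed only in the IL-33 comparison and Steap4 only in the PAD4 comparison. Among 16 other genes of iron uptake and trafficking, 5 of 12 tested rose and 4 fell in the kidneys labelled IL-33 knockout (median change 0.11). In the PAD4 knockout 3 of 13 rose and 2 fell (median change 0.0088). Over all genes, 22.2% rose and 16.8% fell in the IL-33 comparison, and 8.89% and 8.79% in the PAD4 comparison. The counts of this and the later lists are to be read beside these shares. Lrp2, megalin, which reclaims filtered protein in the proximal tubule, was at 69.1 ± 9.23 FPKM in the kidneys labelled IL-33 knockout and 8.43 ± 1.82 FPKM in wild type (change of 2.91, adjusted p = 3.42e-05). Its partner Cubn, cubilin, which takes up transferrin, rose by 2.35 there, and in the PAD4 knockout Lrp2 rose by 1.91 and Cubn by 1.40. Both are also in the proximal tubule list. Trf, transferrin, was at 9.47 ± 1.91 FPKM in the kidneys labelled IL-33 knockout and 55.6 ± 19.5 FPKM in wild type (adjusted p = 0.000309). Trf in the PAD4 knockout was at 5.74 ± 3.83 FPKM, against 12.6 ± 6.11 FPKM in wild type, with overlapping groups (adjusted p = 0.0473). Lcn2, a siderophore carrier and injury marker, was at 19.1 ± 4.40 FPKM in the kidneys labelled IL-33 knockout and 376 ± 203 FPKM in wild type (adjusted p = 0.000144). In the PAD4 knockout Lcn2 was at 75.2 ± 30.8 FPKM, against 134 ± 31.7 FPKM in wild type, and did not pass (adjusted p = 0.102). The metalloreductase gene Steap4 fell in the PAD4 knockout, to 0.772 ± 0.492 FPKM, against 3.55 ± 2.21 FPKM in wild type (adjusted p = 0.00384). Steap4 in the kidneys labelled IL-33 knockout was at 0.778 ± 0.095 FPKM, against 0.820 ± 0.480 FPKM in wild type (adjusted p = 0.994; SD, n = 3 each).

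Genes of systemic and oxygen-linked iron regulation that passed the test mostly fell. Of 15 tested genes of systemic and oxygen-linked regulation, 1 rose and 5 fell in the kidneys labelled IL-33 knockout, and 0 of 16 rose and 3 fell in the PAD4 knockout (median changes of -0.19 and -0.32). Bmp6, the iron-induced signal that raises hepcidin in the liver, was at 11.6 ± 0.445 FPKM in the kidneys labelled IL-33 knockout and 38.9 ± 1.97 FPKM in wild type (adjusted p = 2.5e-05). In the PAD4 set Bmp6 did not pass, at 3.43 ± 1.41 FPKM in the knockout and 2.02 ± 0.811 FPKM in wild type (change of 0.54, adjusted p = 0.165). Id1, a target of that signal, fell in both, to 12.0 ± 1.08 FPKM in the kidneys labelled IL-33 knockout, against 44.6 ± 9.09 FPKM in wild type, and to 10.5 ± 1.97 FPKM in the PAD4 knockout, against 23.4 ± 3.94 FPKM in wild type. Smad1, a mediator of it, fell by 1.15 and Nfe2l2, the NRF2 gene that also drives ferritin transcription, by 1.12 on the log2 scale in the kidneys labelled IL-33 knockout. Bmp2 fell by 0.81 in the PAD4 knockout and Epas1, which encodes HIF-2α, by 0.83 on the log2 scale (adjusted p = 0.00594 and 0.0466).

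Transcripts other than the members that carry known or reported iron-responsive elements rose in 5 of 7 tested genes in the kidneys labelled IL-33 knockout and fell in 0, with a median change of 0.44. Among these were Ndufs1 (0.94), a complex I subunit, Alas2 (1.15), the erythroid enzyme of heme synthesis that is also an erythroid marker, Pfn2 (0.44) and Cdc42bpa (0.38). In the PAD4 knockout 1 of 7 rose and 2 fell (median 0.16). Alas2 and Epas1 fell there, by 0.98 and 0.83 on the log2 scale. Epas1 is also counted in the list of systemic and oxygen-linked regulation.

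Mitochondrial iron genes moved in both directions in the kidneys labelled IL-33 knockout. Of 22 tested, 7 rose and 4 fell there, beside 22.2% and 16.8% of all genes. In the PAD4 knockout 4 rose and 0 fell, beside 8.89% and 8.79% of all genes. The median changes were 0.20 and 0.37. The mitoferrin genes Slc25a37 and Slc25a28, which import iron into mitochondria, fell to 6.12 ± 0.538 and 12.4 ± 0.620 FPKM in the kidneys labelled IL-33 knockout, against 17.7 ± 3.16 and 25.2 ± 4.41 FPKM in wild type. Glrx5, which hands on iron-sulfur clusters, fell by 1.04 on the log2 scale there. Iscu, the scaffold on which clusters are built, rose in the PAD4 knockout, to 82.8 ± 41.97 FPKM, against 12.7 ± 1.40 FPKM in wild type (adjusted p = 0.000166). Cisd3, Abcb8 and Bola3 rose by 1.70, 0.98 and 0.88 there.

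In the remaining lists fewer genes passed. Of 9 cytosolic cluster assembly genes, 3 rose and 1 fell in the kidneys labelled IL-33 knockout (median 0.028): Ciao2a by 0.53, Ciao1 by 0.57 and Narfl, listed under its older symbol, by 0.43, with Ndor1 at -0.68. In the PAD4 knockout 0 of 9 passed, and the smallest p values were those of Ndor1 (change of 0.60, adjusted p = 0.0624) and Ciao2b (0.68, adjusted p = 0.0856). Of 9 tested genes of iron chaperones and ferritin turnover, the only call was Prom2, which rose in both (by 1.12 in the IL-33 comparison and 0.71 in the PAD4 comparison) and whose product helps carry ferritin out of human cells in exosomes. The medians were 0.15 and 0.092. Of 7 tested oxidation and export partners, 0 rose and 2 fell in the kidneys labelled IL-33 knockout, Nedd4l by 0.58 and the heme exporter gene Flvcr1 by 0.71 on the log2 scale, and 0 passed in the PAD4 knockout, where Heph, a ferroxidase, had a change of -0.51 (adjusted p = 0.0717) and Flvcr1 -0.53 (adjusted p = 0.114). The medians were -0.13 and -0.30.

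Leaving out 1 library ended or gave several of these calls. In the PAD4 comparison the adjusted p was 0.0715 to 0.157 for Abcb8, Bola3, Epas1, Prom2 and Trf without knockout library 1, and 0.0679 to 0.0806 for Bola3, Epas1 and Trf without knockout library 3. It was 0.0509 to 0.169 for those 5 and for Alas2 and Cisd3 without wild-type library 1, 0.0657 to 0.313 for Alas2, Epas1, Id1 and Trf without wild-type library 2, and 0.0714 to 0.0979 for Bola3, Epas1, Prom2 and Trf without wild-type library 3. Ndor1 passed without knockout library 3 (adjusted p = 0.0305) and Heph without wild-type library 1 (adjusted p = 0.0442). In the IL-33 comparison Ciao1 and Narfl missed without any 1 of the libraries labelled knockout, Ndor1 without any 1 library except knockout library 1, and Flvcr1 without knockout library 1 (adjusted p = 0.0512 to 0.123).

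The scaling of libraries also changed calls among these genes in the PAD4 comparison. Heph, Flvcr1 and Ciao2b passed under median-of-ratios scaling (adjusted p = 0.0195, 0.0362 and 0.0445) and under quantile normalization (adjusted p = 0.0167, 0.0396 and 0.0427). Alas2 and Trf missed under both (adjusted p = 0.105 to 0.139), Prom2 under quantile normalization (adjusted p = 0.0531), Epas1 and Bola3 with TPM scaling (adjusted p = 0.108 and 0.0555) and Trf with rescaling without mitochondrial genes (adjusted p = 0.0593). Without limma's trend Prom2 and Trf missed (adjusted p = 0.0727 and 0.0807), and with a pseudocount of 0.1 Epas1 and Trf did (adjusted p = 0.0523 and 0.0566).

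**Figure D5:**
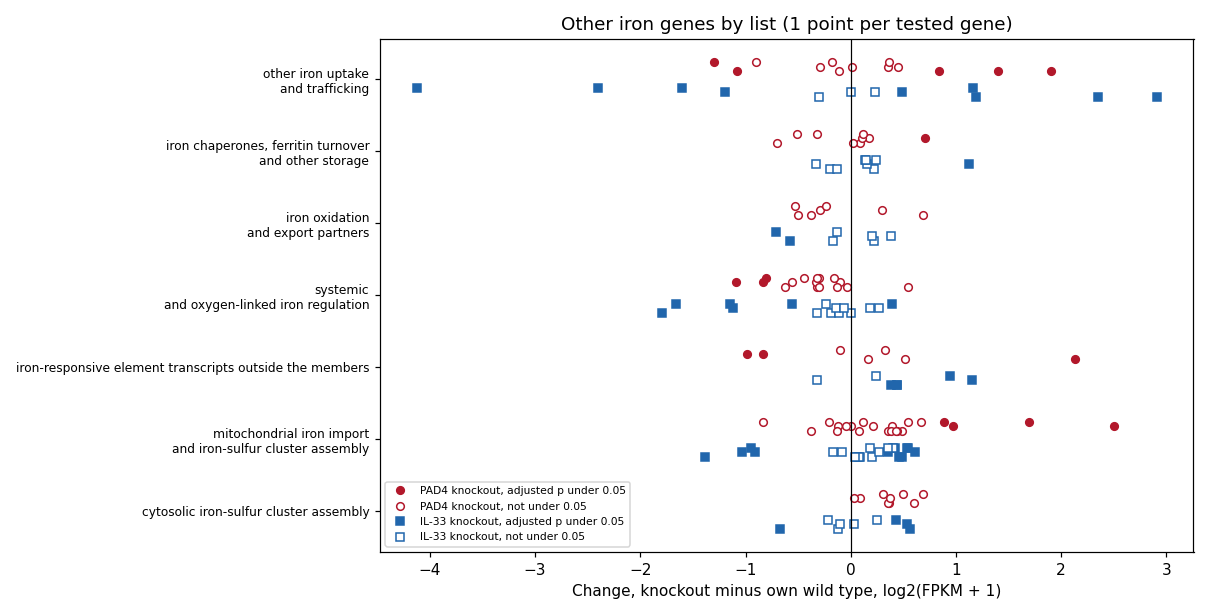
Change of every tested gene of 7 iron lists, as knockout minus its own wild type on the log2(FPKM + 1) scale (horizontal axis), by list (vertical axis). Circles are the PAD4 comparison and squares the IL-33 comparison, filled where the adjusted p was under 0.05. Lrp2 (2.91) and Lcn2 (-4.12) span the first list in the IL-33 comparison, and Iscu (2.50) lies farthest right in the PAD4 comparison.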

How the data were processed

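The authors deposited FPKM values, 1 table per set with 1 column per library, per the file headers. HISAT2, StringTie, FastQC, cutadapt, edgeR and DESeq2 are listed without role or version, per the submitters' processing notes. Per the labels' protocols, polyadenylated RNA gave strand-specific libraries. The genome build, annotation and strand setting were not given in the sources used here. 0 value columns belonged to no sample. The wild-type columns name no set and were mapped by the table they stand in. Symbols came from GENCODE M21 (30212 of 32199 and 29690 of 31719 genes).

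Low FPKM values showed no steps of whole reads (fullest bin of ratios 0.885% to 1.31% of genes), so depth stays unknown and intervals and floors are left out. limma 3.58.1 (R 4.3.3; eBayes with a trend) was fitted to log2(FPKM + 1) within each table, over the 13986 and 14513 genes whose FPKM averaged 0.5 or more, with Benjamini-Hochberg adjustment, a threshold of 0.05 and two-sided tests. This scale understates changes of low genes. An SE is limma's moderated one. The labels call the libraries separate animals. The fit was tested on simulated data.

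The members and lists (7 of iron pathways, 8 of markers) were chosen with earlier results of these data known. List genes named are up to 4 per list and comparison with the smallest p among those past the threshold, or 2 where none passed; a few that this rule picks are not reported here. Slc4a1, Kap, Cd14, Cd68, Krt20, Lgals4, Muc2, Car1, Gm10252, Gm5475, Cdc42bpa and the ferritin copies were named after their values were seen. Alternatives were a stricter filter (mean FPKM of at least 2) or none, pseudocounts of 0.1 and 0.5, TPM scaling, rescaling without mitochondrially encoded genes, median-of-ratios scaling, quantile normalization, no trend, the replicate number as a block and each library left out. Summing the ferritin copies and the ratios were added after seeing the data.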

Additional observations from a re-analysis of the deposited data

Results flagged for a closer look

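The changes of 3 members differed between the knockouts by the test of the difference itself (limma contrast over 12 libraries). Knockout and batch cannot be told apart in this contrast. Steap3 differed by 1.79 (change in the IL-33 comparison minus change in the PAD4 comparison), with a change of 0.97 in the IL-33 comparison and -0.83 in the PAD4 comparison. All 3 libraries labelled IL-33 knockout lay above their wild type, and all 3 PAD4 knockout libraries lay below theirs. Tfrc differed by 1.19, with changes of 1.04 and -0.14. Ftl1 differed by -1.41, with changes of -0.40 and 1.01. Groups of 3 libraries are too small for the test of single outlying libraries.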

How the results depend on the processing

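In the IL-33 comparison the calls of Tfrc, Fth1, Slc11a2 and Aco1 were kept in all 16 alternatives, and that of Steap3 in the 15 in which it was tested. The 1 member that fell became 2 with a mean FPKM of at least 2, under median-of-ratios scaling, under quantile normalization and with the replicate block, the second being Slc39a14 (adjusted p = 0.0291 to 0.0477). Leaving out 1 library each gave 1 to 2 members that fell and 4 to 4 that rose. In the PAD4 comparison, of 16 alternatives, Slc40a1 kept its call in 14, Ftl1 in 11, Fth1 in 6 and Aco1 in 6, and Steap3 in 12 of 15. The 2 members that rose became 1 with a pseudocount of 0.1, 0 with no filter, 1 with TPM scaling, 0 with rescaling without mitochondrial genes and 0 with the replicate block. Slc11a2 was added to those that rose under median-of-ratios scaling and quantile normalization (adjusted p = 0.0261 and 0.0222). The 3 that fell became 0 with no filter and 1 with a mean FPKM of at least 2, where Steap3 was not tested. Fth1 was lost from those that fell with TPM scaling, rescaling without mitochondrial genes and the replicate block (adjusted p = 0.0605, 0.0665 and 0.229). Leaving out 1 library each gave 0 to 2 that rose and 0 to 3 that fell. With no filter limma called 0 of 32199 genes in that comparison (6053 at an unadjusted p under 0.05), and in the IL-33 comparison Ciao1 and Ndor1 missed with no filter (adjusted p = 0.0571 and 0.102). The members that differed between the knockouts numbered 3 to 4 with 1 library left out. The difference of Ftl1 missed with no filter (adjusted p = 0.0631) and under quantile normalization (adjusted p = 0.0636).

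Replicate numbers did not pair the libraries. Same-numbered knockout and wild-type libraries had deviations that correlated at -0.146 to -0.016 in the PAD4 set and -0.014 to 0.134 in the IL-33 set. With the number as a block, Fth1, Ftl1 and Aco1 had adjusted p = 0.229, 0.115 and 0.191 in the PAD4 comparison, Epas1, Abcb8, Bola3 and Id1 had 0.0688 to 0.171, and Il33 had 0.0408 in the IL-33 comparison.

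Some changes that never passed turned sign. Ireb2 never passed but stayed negative in all alternatives, at -0.143 to -0.037 in the IL-33 comparison and -0.285 to -0.081 in the PAD4 comparison. Slc40a1 in the IL-33 comparison was 0.012 with TPM scaling and 0.029 with rescaling without mitochondrial genes, and -0.29 to 0.17 with 1 library left out. Ncoa4 there was -0.010 under median-of-ratios scaling and -0.074 to 0.17 with 1 library left out. In the PAD4 comparison, leaving out 1 library gave -0.12 to 0.35 for Ncoa4 and -0.32 to 0.047 for Tfrc. The difference between the knockouts for Slc39a14 was -0.00063 under median-of-ratios scaling and -0.037 under quantile normalization, and leaving out 1 library gave -0.17 to 0.19 for Slc39a14, -0.30 to 0.17 for Ncoa4, -0.034 to 0.25 for Fth1 and -0.0022 to 0.20 for Ireb2. No cause was tested. FPKM without depth limits what can be said of genes near 1 FPKM, such as Steap3.

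Counts over all genes moved more than the members' in places. In the PAD4 comparison 1243 genes rose and 1230 fell, against 1916 that rose under quantile normalization, 762 that fell with a mean FPKM of at least 2, 352 and 712 without wild-type library 1, and 808 and 515 without wild-type library 3. The IL-33 comparison had 3226 that rose and 2445 that fell, against 2072 and 1554 without knockout library 1 and 2078 and 1609 without knockout library 3. The knockouts differed at 1615 genes, against 1011 with a mean FPKM of at least 2, 3040 under median-of-ratios scaling, 3135 under quantile normalization and 1055 without the library labelled IL-33 knockout 1.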
